A study of Mus musculus with 9 samples.

Results

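The vacuolar proton pump genes described here (10 of the 32285 genes in the count matrices) were followed through nuclei of mouse epididymal adipose tissue (epiAT). They were taken by symbol: Atp6v0a1, Atp6v0b, Atp6v0d1 and Atp6v0d2 of the membrane sector, Atp6v1a, Atp6v1b2, Atp6v1c1, Atp6v1e1 and Atp6v1h of the cytosolic sector, and the accessory gene Atp6ap1. The pump, or V-ATPase, spends ATP in its cytosolic V1 sector to drive protons through the membrane-bound V0 sector into the lysosome, where acid hydrolases need a low pH. Several of its subunits exist as alternatives encoded by separate genes. Atp6v0d1 encodes the widely expressed d subunit and Atp6v0d2 its counterpart known from osteoclasts and macrophages, the resident phagocytes that clear lipid and dead adipocytes from fat.

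The study asked which transcriptional changes of obesity remain in epiAT after weight loss, and single-nucleus RNA-seq was made from male C57BL/6J mice, with 1 library per diet group. Each library pooled the tissue of 5 mice before nuclei were isolated, so mice within a group could not be separated. Groups are named by their diet sequence, where C stands for a chow period and H for a high-fat diet (HFD) period. Controls were C at 18 weeks of age, CC at 26 weeks and CCC at 39 weeks. Obese groups were H (12 weeks of HFD, 18 weeks of age) and HH (25 weeks of HFD, 31 weeks of age). Formerly obese groups were HC (12 weeks of HFD, then 8 weeks of chow, 26 weeks of age) and HHC (25 weeks of HFD, then 8 weeks of chow, 39 weeks of age). In 2 groups aged 30 weeks the last 4 weeks were HFD: CCH had received only chow before, whereas HCH had gone through 12 weeks of HFD and 8 weeks of chow. According to the study's methods, the chow of control mice in their first diet period was low in fat, and standard chow followed after the diet switch. Because each group is 1 library, differences between single libraries are given with intervals that cover counting error only and without a test. The tests set the 5 libraries with at least 12 weeks of HFD at some time (H, HH, HC, HHC and HCH) against the 4 without (C, CC, CCC and CCH), with the sequencing set as a term. Such a contrast mixes age, current diet and time since HFD.

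The 9 libraries held 91687 barcodes and 408905640 unique molecular identifiers (UMIs), 22599619 to 66615262 per library. Of the distinct barcodes, 1.16% occurred in more than 1 library. After quality filters 76356 nuclei remained, 4144 to 13330 per library, and marker genes that include no pump gene sorted them into classes. Of these, 6.99% looked like mixtures of 2 classes and were left out, and 13.9% stayed unassigned. The macrophage class held 23313 nuclei, with 376 in CCC as the fewest and 5879 in HH as the most. Their macrophage marker UMIs had a median of 15 per nucleus, against 1 in adipocyte nuclei, which describes the gate, since these markers defined it. Levels are given as CPM, the UMIs of a gene scaled to a common total of UMIs for each class and library. They include intronic reads and depend on gene length, so they are compared between nuclei and not between genes. The libraries came in 2 sequencing sets, S075 (C, H, HH, CCH and HCH) and S019 (CC, CCC, HC and HHC).

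Promoter sequence was available for 6 of the 10 genes (RefSeq, GRCm38.p6; 250 bases before to 50 after the gene start). It is shown because the MiT transcription factors, which include TFEB and are known regulators of lysosomal genes, bind the 6-letter sequence CACGTG. That motif, which reads the same on both strands, occurred in 3 of the 6 promoters and in 7.15% of all 32851 promoters in the table. Each window below is written 5′ to 3′ on the strand of the gene, with the motif in capitals.
Atp6v0d1, chr8:105566052-105566077, minus strand: ctactgcggtCACGTGagacgcggtg
Atp6v0b, chr4:117887350-117887375, minus strand: gcgcgggggtCACGTGgggtcggcgc
Atp6v0b, chr4:117887332-117887357, minus strand: gtcggcgcatCACGTGcgccggtcag
Atp6v1a, chr16:44139375-44139400, minus strand: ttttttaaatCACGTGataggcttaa

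The gene starts of that table differ from those of the annotation used for the gene coordinates given with the levels, by which the Atp6v1a window lies inside the gene. The longer form TCACGTGA, which contains the shorter motif, was present in the Atp6v0d1 and Atp6v1a promoters and in 0.974% of all promoters. These matches describe letters in a window and nothing about binding. Sequence was not given for Atp6v0d2, Atp6v1b2, Atp6v1c1 and Atp6v1h.

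All 10 pump genes were higher in macrophage nuclei than in adipocyte, progenitor, mesothelial or endothelial nuclei of the same libraries (edgeR quasi-likelihood test with library as a block, adjusted p below 0.05 for each gene in each comparison). Atp6v1h did not pass against adipocyte nuclei without the upper limit of 3000 genes per nucleus (edgeR adjusted p = 0.0984), nor Atp6ap1 against endothelial nuclei without the library block (edgeR adjusted p = 0.15). In the same 4 comparisons 36.2%, 33.6%, 34.0% and 30.1% of all genes tested were higher in macrophages, and 32.4%, 32.7%, 31.5% and 30.6% were lower. The median log2 difference over the members was 1.08 against adipocyte, 1.27 against progenitor, 1.53 against mesothelial and 1.51 against endothelial nuclei, while the median over all genes lay between 0.01 and 0.06. Atp6v0d2 had the largest difference of the 10 in each comparison, at 5.48 ± 0.36 (SE) against adipocyte and 5.03 ± 0.36 against progenitor nuclei. For Atp6v0d1 the same differences were 0.72 ± 0.10 and 0.73 ± 0.06. Without long HFD, Atp6v0d2 had 1 to 25 UMIs per library in adipocyte and 3 to 5 in progenitor nuclei. In each comparison it passed the expression filter only through macrophage nuclei, so its calls here are a description and no support. The smallest difference from adipocyte nuclei was that of Atp6v1e1, a stalk subunit of V1, at 0.46 ± 0.11. Over all libraries together, these tests place the pump genes at their highest in macrophages among the 5 classes. The following values therefore start with macrophage nuclei. Within the libraries without long HFD a difference could be small, as for Atp6v1h at 129 to 215 CPM in macrophage and 128 to 195 CPM in adipocyte nuclei.

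In the membrane sector, Atp6v0d2 (chromosome 4, 19876841 to 19922605, minus strand, GRCm38) was at 70.2, 21.3, 144 and 57.0 CPM in the libraries without long HFD, taken as C, CC, CCC and CCH throughout. It was at 968, 1121, 1056, 1306 and 807 CPM in those with long HFD, taken as H, HH, HC, HHC and HCH. No library without a long HFD period came near any library with one, and of the formerly obese libraries HC lay between H and HH and HHC above both. The fitted difference was 3.84 ± 0.42 on the log2 scale (edgeR adjusted p = 0.000461). Atp6v0d1 (chromosome 8, 105524465 to 105566047, minus strand) gave 167, 164, 150.5 and 160.5 CPM without and 177, 201, 199, 191 and 157 CPM with long HFD, in the same order. Its groups overlapped, and the fitted difference was 0.13 ± 0.13 (edgeR adjusted p = 0.476).

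Atp6v0a1 (chromosome 11, 101009452 to 101063719, plus strand) encodes an a subunit, which forms the proton path together with the c ring. Its level was 377, 427, 518 and 444 CPM without and 1449, 1474, 1412, 1462 and 1016 CPM with long HFD. The 4 highest libraries were close to each other, and HCH lay below them and above every library without long HFD. The difference was 1.57 ± 0.15 (edgeR adjusted p = 0.000233). Atp6v0b (chromosome 4, 117884326 to 117887333, minus strand) encodes a subunit of the proton-carrying ring. It was at 250.3, 185, 247 and 302 CPM without and at 958, 1188, 308, 475 and 454 CPM with long HFD. Its pattern was unlike that of Atp6v0d2 and Atp6v0a1, since the 2 libraries on uninterrupted HFD stood apart and HC lay just above CCH. The high value in HH was not confined to macrophages. HH was also highest for Atp6v0b in adipocyte (593 CPM), progenitor (450 CPM), mesothelial (248 CPM) and endothelial (280 CPM) nuclei, and H in epithelial nuclei (215 CPM). In macrophage nuclei the difference of Atp6v0b after long HFD was 1.22 ± 0.28 (edgeR adjusted p = 0.0119).

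**Figure D1:**
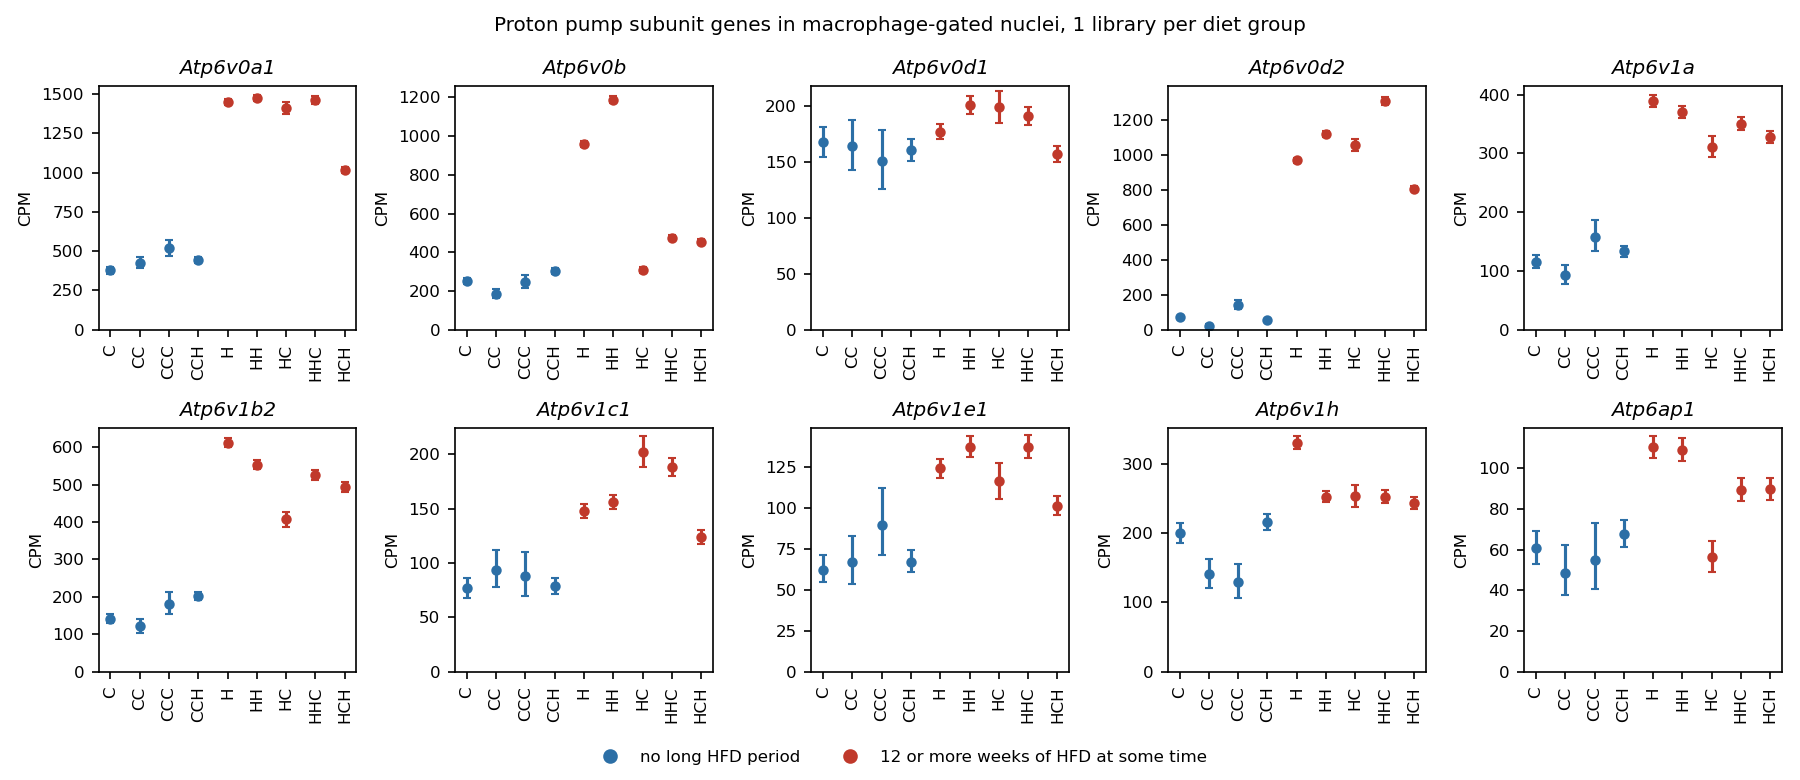
Level of the 10 pump genes in macrophage-gated nuclei (CPM, linear axes from 0) in each of the 9 libraries, with exact 95% Poisson intervals for counting error; red marks libraries with at least 12 weeks of HFD at some time. Atp6v0d2 lies at 21.3 to 144 CPM in the blue libraries and at 807 to 1306 in the red ones, while Atp6v0d1 stays between 150.5 and 201 CPM in all 9.

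Among V1 genes, Atp6v1a (chromosome 16, 44085402 to 44139705, minus strand) and Atp6v1b2 (chromosome 8, 69088646 to 69113711, plus strand) encode the A and B subunits, which form the ATP-hydrolysing head. Atp6v1a was at 116, 92.8, 159 and 133 CPM without and at 389, 371, 311, 350.2 and 328 CPM with long HFD. Atp6v1b2 was at 141, 122, 181 and 203 CPM without and at 613, 554, 407, 525 and 494 CPM with long HFD. The groups did not overlap for either gene, and both libraries after weight loss lay above every library without long HFD. The log2 differences were 1.41 ± 0.15 for Atp6v1a and 1.58 ± 0.16 for Atp6v1b2 (edgeR adjusted p = 0.000281 and 0.000265).

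The other V1 genes differed less. Atp6v1c1 (chromosome 15, 38661933 to 38692446, plus strand), a subunit of the link between the sectors, ranged from 76.8 to 93.6 CPM without and from 124 to 202 CPM with long HFD, a difference of 0.89 ± 0.13. Atp6v1e1 (chromosome 6, 120794305 to 120822793, minus strand) ranged from 62.2 to 89.6 and from 101 to 137 CPM (0.73 ± 0.13). Atp6v1h (chromosome 1, 5070018 to 5162529, plus strand), a regulatory subunit, ranged from 129 to 215 and from 243 to 330.4 CPM (0.55 ± 0.16). None of these 3 genes overlapped between the groups, but their gaps were narrow. The accessory gene Atp6ap1 (chromosome X, 74297097 to 74304721, plus strand), which helps to assemble the pump, ranged from 48.7 to 67.7 CPM without and from 56.1 to 110.4 CPM with long HFD (0.52 ± 0.14), and its groups overlapped through HC.

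Over all macrophage nuclei, 9 of the 10 members were higher after long HFD (edgeR, adjusted p below 0.05), none was lower, and Atp6v0d1 did not pass. Of the 14263 genes tested, 17.1% were higher and 12.6% lower. The median log2 difference was 1.05 over the members and 0.06 over all genes. For 8 members all 5 libraries with long HFD lay above the other 4, which held for 10.2% of all genes. Within set S075, 8 of the 9 calls remained, the exception being Atp6v1h at 0.23 ± 0.17 (edgeR adjusted p = 0.323), where 17.2% of genes were higher and 13.5% lower. Within set S019, with 2 libraries on each side, 2 members passed (1.31% of genes were higher and 0.885% lower), Atp6v0a1 (1.60 ± 0.20) and Atp6v1b2 (1.62 ± 0.23), while Atp6v0d2 was at 3.90 ± 0.82 (edgeR adjusted p = 0.0916). With CCH and HCH left out, which removes the libraries on renewed or late HFD, 8 members passed (9.66% of genes were higher and 9.63% lower) and Atp6ap1 did not (edgeR adjusted p = 0.0562). Leaving out library C left 6 members called (7.20% of genes were higher and 6.21% lower), and Atp6v0b, Atp6v1h and Atp6ap1 no longer passed (edgeR adjusted p = 0.053, 0.087 and 0.094). RNA of other classes also differed in macrophage nuclei. Adipocyte markers summed to 465 to 2346 CPM without and 119 to 487 CPM with long HFD, and progenitor markers to 405 to 876 and 537 to 1564 CPM. The part of such RNA in the macrophage results was not tested.

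Single libraries were also set against a control. The pairs were H against C, HH against CC, HC against CC, HHC against CCC and HCH against CCH, and HH and HC share the control CC. A ratio of 2 or more was reached by 5, 7, 5, 5 and 4 members in these pairs, beside 28.4%, 31.8%, 11.0%, 17.4% and 18.1% of all genes with at least 20 UMIs. No member was 2-fold lower in any of these pairs, in which 13.1%, 14.4%, 12.8%, 7.89% and 3.65% of genes were. The median log2 ratio of the members was 1.37, 1.47, 0.97, 1.02 and 0.62 in this order of pairs, beside 0.26, 0.30, −0.06, 0.06 and 0.19 over all genes.

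Atp6v0d2, Atp6v0a1, Atp6v1a and Atp6v1b2 passed 2-fold in all 5 pairs. The share of all genes that did so in all 5 pairs was not counted, so this is a description only. After weight loss, the log2 ratio of Atp6v0d2 was 5.63 in HC (95% interval 5.10 to 6.22) and 3.19 in HHC (2.93 to 3.45), and that of Atp6v0a1 was 1.73 in HC (1.60 to 1.85) and 1.50 in HHC (1.36 to 1.64). Set against CC, Atp6v0d2 was at 5.72 in HH (5.19 to 6.31), near its value in HC, whereas HHC has another control, CCC, in which Atp6v0d2 was higher than in CC. Atp6v0b differed between HH and HC against the control CC, with 2.68 in HH (2.50 to 2.87) and 0.74 in HC (0.54 to 0.94). The intervals of HH and HC for Atp6ap1 also lay apart, at 1.16 (0.80 to 1.55) and 0.21 (−0.20 to 0.63). H, HH and HC differ in age as well as diet, and HC is in another sequencing set than H and HH. The pair of HH (31 weeks, S075) and CC (26 weeks, S019) also crosses age and set, unlike the other pairs. These differences cannot be told apart from diet here. In CCH, which had HFD for its last 4 weeks only, 1 member (Atp6v0d2) was 2-fold above CC (8.62% of genes) and none was 2-fold above C (3.47% of genes). Atp6v0d2 in CCH was 2.67 times its CC level and 0.812 times its C level. The CC level rests on 28 UMIs, and without the upper limit of 3000 genes per nucleus, tried after the data had been seen, CCH was at 1.14 times CC (95% interval 0.917 to 1.44). The log2 ratios to CC were then 4.20 in HH, in place of 5.72, and 4.30 in HC, in place of 5.63.

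The choice between the d subunits is best seen in their shared UMIs. Atp6v0d2 made up 29.5%, 11.5%, 48.8% and 26.2% of the d subunit UMIs in macrophage nuclei without long HFD. It made up 84.5%, 84.8%, 84.1%, 87.3% and 83.7% with long HFD. All 5 libraries with long HFD thus lay within a few percentage points of each other, and the others were scattered below. The log2 ratio of Atp6v0d2 to Atp6v0d1 UMIs was 2.49 ± 0.16 (SD, n = 5) and −1.44 ± 1.18 (SD, n = 4), a difference of 3.94 with an exact two-sided permutation p of 0.00794, the smallest the 126 regroupings can give. The share had been planned without a test. This p follows from the full separation of the groups given above, so it adds no support. The difference was 3.81 within S075 (exact permutation p = 0.1) and 4.10 within S019 (exact permutation p = 0.333), where these are the smallest values possible. UMIs of genes that differ in length do not give the share of protein or of transcripts, and only the shift between libraries is read here. Without the upper limit of 3000 genes per nucleus, the share in CC was 27.3%.

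**Figure D2:**
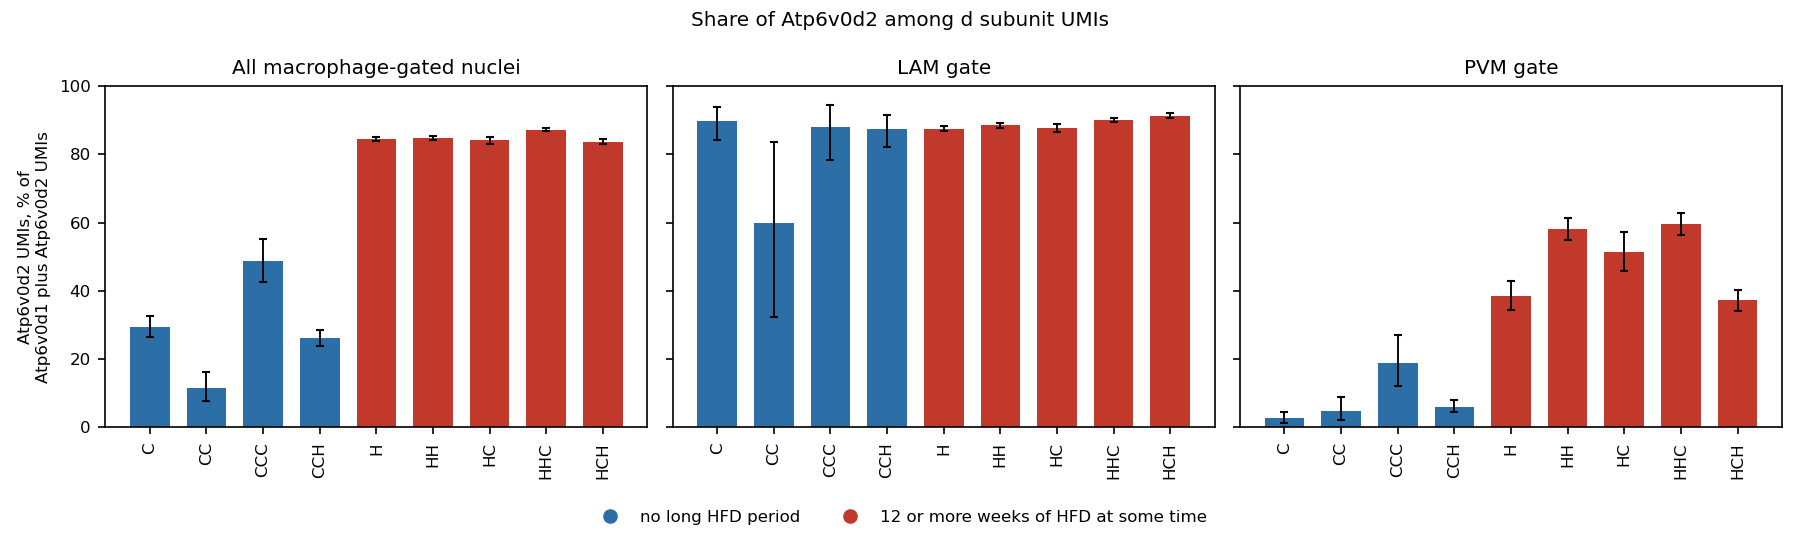
Atp6v0d2 UMIs as a percentage of all d subunit UMIs in each library (bars, axis from 0 to 100) with exact 95% binomial intervals, in all macrophage-gated nuclei and in the LAM and PVM gates. The share is 83.7% to 87.3% in the red libraries with long HFD and 11.5% to 48.8% in the blue ones over all macrophage nuclei, and 87.3% to 91.3% in the LAM gate of every library except CC, where that gate held 3 nuclei.

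Macrophages were divided by markers of lipid-associated macrophages (LAMs, the Trem2 and Gpnmb expressing cells of obese fat) and of perivascular-like resident macrophages (PVMs, marked by Lyve1 and Cd163). A nucleus entered a gate when its marker UMIs exceeded the rate in stromal, mesothelial and endothelial nuclei of its library, which is harder to pass for a shallow nucleus. For LAM markers this rate was itself higher with long HFD. In progenitor nuclei they summed to 131 to 212 CPM without and to 1007 to 3537 CPM with long HFD. LAM-like nuclei can therefore have stayed outside the LAM gate more often in the libraries with long HFD. The LAM gate took 39.2%, 29.6%, 41.7%, 37.5% and 23.2% of macrophage nuclei with long HFD, but 0.728% to 3.19% in C, CC, CCC and CCH. The PVM gate took 65.2% to 75.7% in those 4 and 11.9% to 31.4% in the 5 with long HFD. A difference over all macrophage nuclei therefore joins a change in the kinds of macrophage with any change inside a kind.

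Compared within 6 libraries that had at least 20 nuclei in each gate, 8 of the 10 members were higher in LAM-gated than in PVM-gated nuclei and none was lower (edgeR with library as a block; 20.5% of 11862 genes were higher and 21.2% lower). The median difference was 1.02 over the members and 0.01 over all genes. Atp6v0d2 led with 3.48 ± 0.56 on the log2 scale, followed by Atp6v1b2 at 1.60 ± 0.10, Atp6v1a at 1.29 ± 0.09, Atp6v0a1 at 1.13 ± 0.09, Atp6v1h at 1.04 ± 0.08 and Atp6v1c1 at 1.00 ± 0.10. Atp6v1e1 (0.56 ± 0.09) and Atp6ap1 (0.33 ± 0.12) passed with smaller differences, and Atp6ap1 did not pass under the stricter gate or without HC or HHC. Atp6v0d1 was at −0.02 ± 0.08 and Atp6v0b at 0.17 ± 0.10, and neither passed.

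The level of Atp6v0d2 in LAM-gated nuclei was 1410, 1734, 1538, 1903 and 1867 CPM with long HFD. In the libraries without long HFD it was 1738 CPM in C (19 nuclei), 757 in CC (3 nuclei, 9 UMIs), 1586 in CCC (12 nuclei) and 1031 in CCH (45 nuclei). The few LAM-gated nuclei of C and CCC can be set beside the many in H and HHC: the log2 ratio was −0.30 for H against C (−0.53 to −0.06) and 0.26 for HHC against CCC (−0.09 to 0.63). HCH was above CCH in this gate by 0.86 (0.65 to 1.07) for Atp6v0d2 and by 0.67 (0.47 to 0.88) for Atp6v0a1. Over the 10 members the median log2 ratio of this pair was only 0.23, with 7 above 0, beside 0.02 over all genes. Atp6v1h (523 CPM) and Atp6v1c1 (267 CPM) had their highest LAM-gated level of all libraries in CCH. Median depth in the LAM gate was 5445 UMIs per nucleus in C and 2858 in H.

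In the PVM gate Atp6v0d2 was at 4.66, 7.97, 36.4 and 11.1 CPM without and at 120, 311, 228, 306 and 94.5 CPM with long HFD. Macrophages in neither gate had 33.7 to 151 CPM without and 653 to 1151 CPM with long HFD. Every library with long HFD was above every library without in each of these gates. B cell nuclei, which are not known to use this gene, had 38.5, 61.7, 155, 178 and 17.3 CPM with long HFD and no UMI in the other 4 libraries, where B cell nuclei were few. There 3 UMIs would give 41.5, 665, 28.8 and 14.95 CPM in the order used above, so the zero of CC says little. The level of 3 UMIs in CCH was below all 5 B cell values with long HFD, but close to the 17.3 CPM of HCH, and it is not a 95% limit. In HC and HHC the PVM-gated level was less than 2-fold above that of B cells. What part free RNA has in the PVM-gated values was not tested.

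With LAM-gated nuclei left out, 7 members remained higher after long HFD (edgeR, with 12.2% of 14201 genes higher and 8.97% lower). The same number passed in PVM-gated nuclei alone (6.74% of 11086 genes were higher and 3.73% lower). Because the LAM gate was harder to pass with long HFD, both sets may still hold LAM-like nuclei there. These fits therefore cannot show a difference outside LAMs. The median over the members was 0.79 without LAM-gated nuclei and 0.66 in PVM-gated nuclei. Atp6v0d2 was at 4.27 ± 0.38 and 4.06 ± 0.54. In PVM-gated nuclei it had 13, 8, 21 and 47 UMIs in C, CC, CCC and CCH. It passed the expression filter there only through the libraries with long HFD, so its PVM-gated call is a description and no support. Values were smaller than over all macrophages for Atp6v0a1 (1.26 ± 0.16 and 0.79 ± 0.14), Atp6v1a (1.05 ± 0.13 and 0.75 ± 0.13) and Atp6v1b2 (1.25 ± 0.16 and 0.87 ± 0.14). Atp6v1h no longer passed, at 0.04 ± 0.14 and 0.08 ± 0.12, nor did Atp6ap1 at 0.38 ± 0.15 and 0.30 ± 0.18. Atp6v0b passed in both, at 1.09 ± 0.28 and 1.00 ± 0.26.

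**Figure D3:**
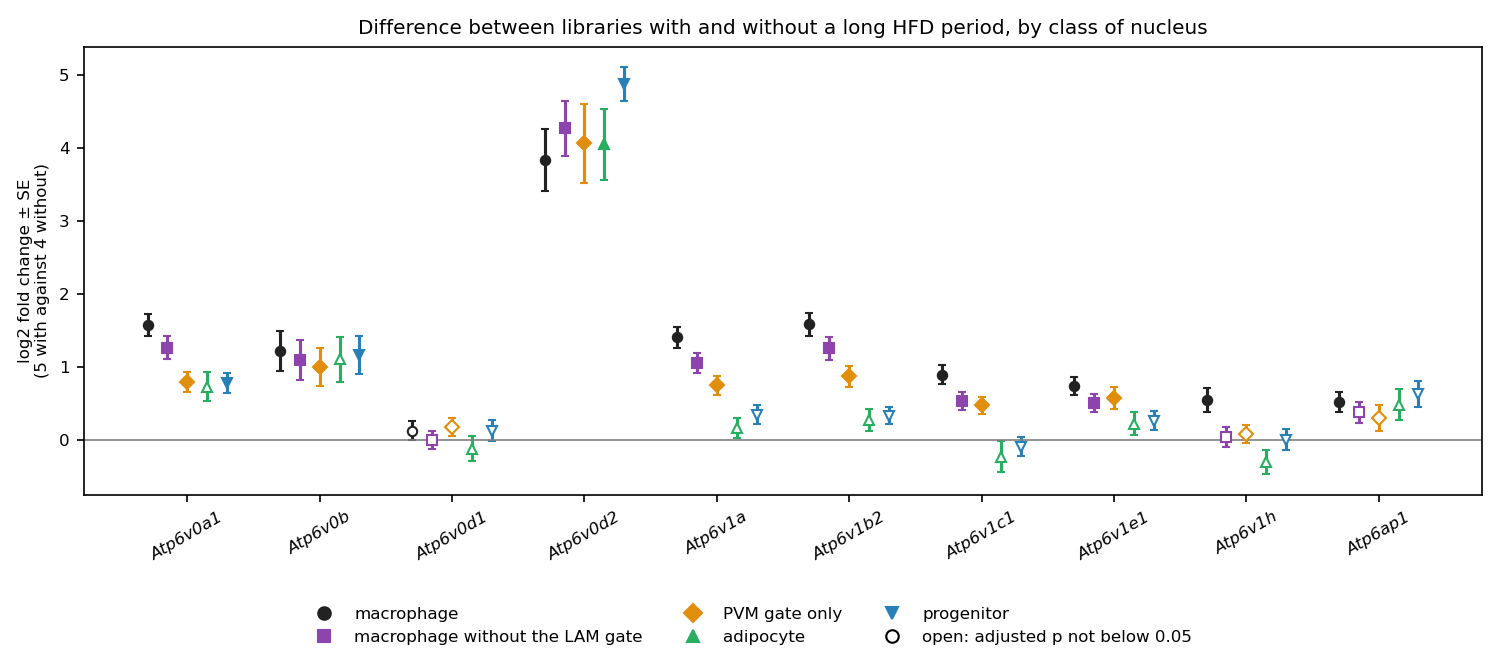
Log2 fold change with its SE (edgeR) between the 5 libraries with and the 4 without at least 12 weeks of HFD, for the 10 members in 5 sets of nuclei; filled symbols have an adjusted p below 0.05. Atp6v0d2 is near 4 or above in all 5 sets, Atp6v0d1 is near 0 in all, and Atp6v1h is at 0.04 and 0.08 in the 2 macrophage sets without LAM-gated nuclei. Without long HFD, Atp6v0d2 rests on 1 to 25 UMIs per library in adipocyte, 3 to 5 in progenitor and 8 to 47 in PVM-gated nuclei.

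In adipocyte nuclei only Atp6v0d2 of the 10 members was higher after long HFD (4.05 ± 0.48, edgeR adjusted p = 0.00709), where 1.12% of 12754 genes were higher and 0.369% lower. With 6, 4, 25 and 1 UMIs in C, CC, CCC and CCH, it passed the expression filter only through the libraries with long HFD. Its call here is therefore a description and no support. Atp6v0a1 stood at 0.73 ± 0.20 and Atp6v0b at 1.10 ± 0.31 without passing (edgeR adjusted p = 0.0914 and 0.0942). In progenitor nuclei 3 members were higher, Atp6v0d2 (4.88 ± 0.23), Atp6v0b (1.16 ± 0.26) and Atp6v0a1 (0.78 ± 0.14), with 5.38% of 14305 genes higher and 2.29% lower. Atp6v0d2 had only 3 to 5 UMIs per library there without long HFD. It passed the expression filter only through the libraries with long HFD, so its call in this class is a description and no support. The head and stalk genes did not pass in either class, with Atp6v1a at 0.16 ± 0.14 and 0.34 ± 0.13, Atp6v1b2 at 0.27 ± 0.15 and 0.33 ± 0.11 and Atp6v1c1 at −0.24 ± 0.21 and −0.10 ± 0.13. The levels of Atp6v1b2 did not overlap all the same, at 78.3 to 103 CPM without and 104.6 to 147 CPM with long HFD in adipocyte nuclei, and at 73.0 to 89.7 and 92.2 to 133 CPM in progenitor nuclei. Those of Atp6v1a did not overlap in progenitor nuclei, at 54.5 to 79.7 and 90.2 to 106 CPM. All 5 libraries with long HFD lay above the other 4 for 3 members in adipocyte nuclei (2.18% of all genes) and for 4 in progenitor nuclei (5.43% of all genes), Atp6v0d2 and Atp6v0a1 among them in both. The counts in adipocytes were sensitive to the setting: without the sequencing set term no member passed (0.321% of all genes were higher), DESeq2 called 3 (5.92%), and 3 passed without CCC (5.48%) or without HC (9.98%).

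The levels behind these adipocyte and progenitor results were low. Atp6v0d2 was at 0.313 to 6.56 CPM in adipocyte nuclei of libraries without long HFD (1 to 25 UMIs per library), and at 6.80, 14.1, 44.2, 52.5 and 14.9 CPM with long HFD. In progenitor nuclei it was at 0.612 to 2.31 CPM and at 18.0, 23.8, 82.1, 97.4 and 16.5 CPM in the same order. Other classes were alike: endothelial nuclei had 23.9, 43.3, 89.4, 174 and 19.1 CPM with long HFD, and mesothelial nuclei had 78.6 CPM in HC and 95.9 in HHC. HC and HHC were the highest in each of these classes, although in macrophage nuclei HC lay between H and HH. Among the libraries with long HFD, HC and HHC are in set S019, whereas H, HH and HCH are in S075. Weight loss and sequencing set cannot be told apart in this ranking.

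RNA of LAM and general macrophage markers also ranged higher in adipocyte and progenitor nuclei of the libraries with long HFD. The summed level of the 8 LAM markers in adipocyte nuclei was 39.0 to 177 CPM without and 615 to 2364 CPM with long HFD, and in progenitor nuclei 131 to 212 and 1007 to 3537 CPM. The 11 general macrophage markers summed to 77.7 to 272 and 268 to 946 CPM in adipocyte nuclei, and to 120 to 186 and 457 to 1952 CPM in progenitor nuclei. The 8 PVM markers did not move in the same way, at 127 to 384 CPM without and 81.6 to 159 CPM with long HFD in adipocyte nuclei, and at 126 to 246 and 138 to 212 CPM in progenitor nuclei. No marker of these 3 lists was at 0 over all libraries. Atp6v0d2 UMIs per UMI of the LAM marker Gpnmb were 0.302 in LAM-gated nuclei of H, and 0.0281 in progenitor, 0.0207 in adipocyte, 0.0253 in endothelial and 0.0191 in mesothelial nuclei of that library. In HC the ratio was 0.343 in LAM-gated nuclei and 0.184, 0.177, 0.204 and 0.204 in the same 4 classes. In HH the LAM-gated ratio was 0.350 against 0.0394 to 0.0582 in the 4 classes, in HHC it was 0.236 against 0.0545 to 0.0879, and in HCH 0.574 against 0.0541 to 0.116. Among the 5 libraries with long HFD, HC was thus the one in which these classes reached more than 50% of the LAM-gated ratio, and HHC, whose levels outside macrophages were also high, did not share this. The part of free or misassigned macrophage RNA in the adipocyte and progenitor results was not tested.

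**Figure D4:**
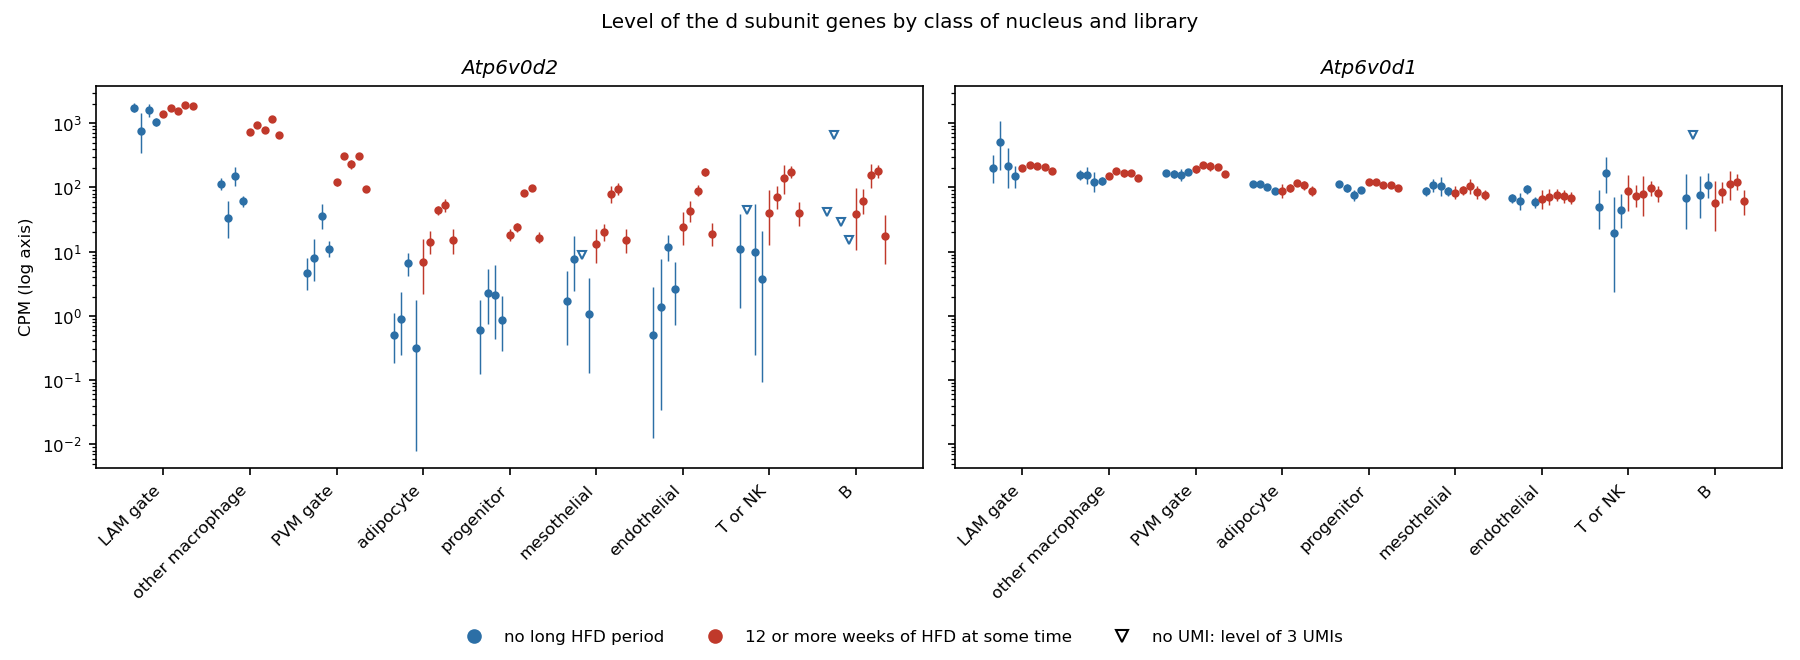
Level of Atp6v0d2 and Atp6v0d1 (CPM, log axis) in 9 classes of nuclei, each with the 9 libraries in the order C, CC, CCC, CCH, H, HH, HC, HHC, HCH and exact 95% Poisson intervals; open triangles mark libraries with no UMI at the level that 3 UMIs would give. Atp6v0d2 falls from 757 to 1903 CPM in the LAM gate to 0.313 to 52.5 CPM in adipocyte nuclei, and in every non-macrophage class HC and HHC are the highest, while Atp6v0d1 has no such order. HC and HHC are also the long HFD libraries of set S019, and H, HH and HCH belong to S075.

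Counted by nuclei, Atp6v0d2 had at least 1 UMI in 58.8%, 61.0%, 66.5%, 74.3% and 45.4% of macrophage nuclei with long HFD, and in 3.17%, 3.40%, 5.85% and 5.05% without. After thinning each nucleus to 1000 UMIs, which left out 1 to 407 shallower nuclei per library, the shares were 43.8%, 50.1%, 47.5%, 54.4% and 33.1%, and 2.18%, 1.22%, 5.13% and 2.72%. The groups of libraries thus stayed apart at equal depth. Endothelial nuclei had a thinned share of 8.65% in HC, 16.9% in HHC and 2.32% to 2.55% in H, HH and HCH. The share over all macrophage nuclei was higher in each of these libraries. In PVM-gated nuclei of HHC it was 16.9%, like that of endothelial nuclei. What part free RNA has in these shares was not tested. In C and CCH thinned endothelial shares were 0.119% and 0.193%, and in CC and CCC 0.427% and 1.61%. The thinned share of macrophage nuclei with an Atp6v0d1 UMI was 13.7% to 18.3% over all 9 libraries, with no separation of the groups.

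Of all Atp6v0d2 UMIs in kept nuclei, macrophage nuclei held 91.4%, 88.1%, 71.2%, 80.6% and 87.3% with long HFD. They held 84.8%, 38.9% (28 of 72 UMIs), 57.9% and 87.3% without, where they contributed only 6.95% to 24.6% of all UMIs. For Atp6v0d1 the macrophage share was 11.2% to 66.9%. In the tissue as a whole, the level of Atp6v0d2 over all kept nuclei was 5.31 to 17.2 CPM without and 333 to 628 CPM with long HFD. The macrophage share of all UMIs was close in CCH and HC (24.6% and 22.4%), whose levels of Atp6v0d2 over all kept nuclei were 16.0 and 333 CPM. The LAM gate took 2.55% of macrophage nuclei in CCH and 41.7% in HC. CCH and HC also differ in age, current diet and sequencing set. Atp6v0d1 over all kept nuclei was 93.6 to 112 and 117 to 154 CPM.

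Genes that work with the members were taken from 5 lists, and their counts stand beside the 17.1% of all genes that were higher and the 12.6% that were lower in macrophage nuclei. Of 15 other pump subunit genes, 11 could be tested in macrophage nuclei, where 6 were higher and 1 lower after long HFD. Tcirg1, the a3 subunit known from osteoclasts and macrophage lysosomes, was at 74.6 to 125 CPM and 236 to 443 CPM (1.63 ± 0.22). Atp6v0c, the main ring subunit, was at 32.0 to 50.7 CPM and 46.3 to 235 CPM (1.61 ± 0.27), with its lowest long HFD value in HC as for Atp6v0b. Atp6v1d differed by 0.47 ± 0.12. Atp6v0a4, an a subunit known from kidney and epididymis epithelium, was lower (−2.15 ± 0.45) at 1.03 to 19.5 CPM, on 4 to 31 UMIs per library. Its level in epithelial nuclei was 152 to 307 CPM in the libraries without long HFD. With long HFD it was 260 CPM in H, 161 in HH, 3.62 in HC (2 UMIs), 96.6 in HHC and 263 in HCH. CC and CCC, the highest in macrophage nuclei (17.5 and 19.5 CPM), were also the highest in adipocyte nuclei (12.5 and 24.7 CPM). The part of free RNA in the macrophage difference of Atp6v0a4 was not tested. Atp6v1e2 had no UMI in macrophage nuclei.

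Of 9 assembly factors and regulators, a share near that of all genes passed: 2 were higher (Tmem199 at 1.73 ± 0.32 and Dmxl2 at 0.34 ± 0.11) and 1 was lower (Rogdi at −1.23 ± 0.32), and Vma21 was at 0.50 ± 0.19 without passing. Of 4 lysosomal channels and carriers, the chloride and proton exchanger gene Clcn7 was higher (0.97 ± 0.16), whereas Ostm1 (0.23 ± 0.19), Mcoln1 (−0.14 ± 0.13) and Tmem175 (0.23 ± 0.14) did not pass. Of the 4 MiT factors, Mitf (0.66 ± 0.17), Tfeb (0.60 ± 0.16) and Tfe3 (0.47 ± 0.14) were higher and Tfec was at −0.00 ± 0.19. Among 6 osteoclast and fusion genes, 5 could be tested. The protease gene Ctsk had the largest difference (4.92 ± 0.58), from 5.48 to 27.6 CPM without to 151 to 502 CPM with long HFD. Acp5 (2.0 ± 0.38) and the fusion gene Dcstamp (2.06 ± 0.40) were also higher, and Mmp9 was lower (−1.64 ± 0.54) at 0.473 to 5.76 CPM.

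The genes whose macrophage level followed that of Atp6v0d2 most closely over the 9 libraries, among 10592 genes with at least 500 UMIs, were Lgals3 (Pearson r = 0.994), Arhgap25 (0.992), Evl (0.990), Kcnn4 (0.990) and Soat1 (0.989), on log2(CPM + 1). Lgals3 is one of the LAM markers used for the gate. Among the members, r with Atp6v0d2 was 0.986 for Atp6v1a, 0.957 for Atp6v1b2 and Atp6v0a1, 0.943 for Atp6v1e1 and 0.878 for Atp6v1c1. It was lower for Atp6v0b (0.753), Atp6v1h (0.753), Atp6ap1 (0.725) and Atp6v0d1 (0.638). The 9 points fall into the 2 groups of libraries already described, so these values rank likeness and carry no test.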

How the data were processed

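Nuclei from snap-frozen epiAT of 9 diet groups, 1 library each from 5 pooled mice, were profiled with 10x 3′ v3.1. The deposited counts are UMIs per gene and barcode that the authors made with Cell Ranger 6.1.2 (mm10, introns included), before their Seurat 4.1.0 analysis. The deposited matrices were used without correction for free RNA. According to the study's methods, free RNA was estimated with SoupX and correction was judged unnecessary for every mouse sample. Here barcodes with 500 to 3000 genes and at most 40000 UMIs were kept, and sums exclude Malat1 and the mitochondrial genes. Class membership came from a Poisson likelihood over 85 marker genes of 11 classes, with a gap of 3 log units, at least 2 markers, and nuclei better explained as a mixture of 2 classes (by 5 units) left out, which stood in for a doublet caller. Of macrophage nuclei, 2.91% lay near the limit. The rule of this gate was set after class sizes had been seen. UMIs were summed per library and class. Library sums were tested with edgeR 4.0.16 in R 4.3.3 (filterByExpr, TMM, glmQLFTest, Benjamini-Hochberg over all genes tested), and standard errors were derived from the F statistic. DESeq2 1.42.0, RLE factors, no filter, other gates, single sets and leaving out each library were alternatives. Ratios of single libraries have exact conditional 95% intervals that cover counting error only. The test scripts were tested on simulated data. With 1 pool per group, p-values measure the spread between libraries of unlike diets and ages. Members, lists and contrasts were chosen with earlier results of these data known. Named were all members, the 4 genes of each list with the lowest p in the macrophage contrast, list genes with no UMI, and the 5 genes most like Atp6v0d2; Ocstamp and 4 subunit genes were too low to test.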

Additional observations from a re-analysis of the deposited data

Results flagged for a closer look

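Within the 5 libraries with long HFD and the 4 without, the highest or lowest library of each member was compared with its neighbours by Dixon's ratio in macrophage nuclei, over 20 sets of values, of which chance flags about 1 in 20. The lone low value was Atp6v0a1 in HCH, at 1016 CPM below the 1412 to 1474 CPM of the other libraries with long HFD. The lone high value was Atp6v1h in H, at 330.4 CPM above 243 to 253 CPM. HCH also had the smallest LAM-gated share of the 5 (23.2%), and its part in this value was not tested.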

How the results depend on the processing

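Macrophage nuclei against the other 4 classes kept 10 members under every alternative except no upper gene limit (adipocyte nuclei) and no library block (endothelial nuclei), with 9 each. In these 2 settings 5555 of 14529 and 2818 of 11072 genes were higher in macrophages. Over all macrophage nuclei, the diet history count of 9 members was within 1.5 times of 9 under every alternative except set S019 alone. In S019 alone 2 members passed (1.31% of all genes were higher). Leaving out 1 library gave 6 to 9, where 7.20% (without C) to 20.7% (without HC) of all genes were higher. Without the sequencing set term 7 members passed there (12.4% of all genes were higher and 7.92% lower). In adipocyte nuclei, where 1 member passed, DESeq2 called 3, no filter 2, no set term 0, set S075 alone 2 (and 1 lower) and set S019 alone 0, and leaving out 1 library gave 1 to 3, with 3 without CCC or HC. Of all genes in adipocyte nuclei, 1.12% were higher, against 5.92%, 5.55%, 0.321%, 15.5% and 0.00% in the first 5 of these settings and 5.48% and 9.98% without CCC and HC. In progenitor nuclei, where 3 passed, keeping mixed nuclei gave 5, no set term 2 (2.99% of all genes higher) and set S019 alone 1. Leaving out 1 library gave 2 to 4, with 2 without C, CC, CCH, H, HH or HHC. Of all genes in progenitor nuclei 5.38% were higher, against 6.11% with mixed nuclei, 0.00784% (1 gene) in S019 and 1.14% (without CCH) to 12.3% (without HC) with 1 library left out. Between LAM-gated and PVM-gated nuclei, leaving out 1 library gave 7 to 9 members. Of all genes, 2073 of 11862 were higher and 2016 lower without HH, and 2555 of 11999 were higher and 2537 lower without CCH. No library block gave 7, with 1169 of 11862 genes higher and 1357 lower. With TMM factors the median log2 ratio of HCH to CCH was 0.51. Without the upper gene limit the Atp6v0d2 share of d subunit UMIs was 34.1% in C, 27.3% in CC, 30.7% in CCH, 85.5% in HC, 88.2% in HHC and 85.1% in HCH. Atp6v0d1, which passed in neither test, changed sign with diet history when LAM-gated nuclei were left out (−0.0018) or within S075 (−0.059), and between LAM-gated and PVM-gated nuclei with mixed nuclei kept (0.014), no filter (0.0078) or no upper limit (0.047), and ranged from −0.040 to 0.015 when 1 library was left out. The Atp6v1h call with diet history was lost without C, CC, CCC, H, HC or HHC, each time, and that of Atp6ap1 without C or HHC. The cause was not tested. Each diet group is 1 library, so a shared replicate number pairs nothing. H and C, HC and CC, HHC and CCC, and HCH and CCH match in age and sequencing set, but no fit blocked on these pairs was run. Classes with few nuclei (3 to 45 LAM-gated nuclei in libraries without long HFD) limit precision.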
